A study of Mus musculus with 23 samples.

Results

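The Ms4a family of myeloid cells is described here as 6 genes, Ms4a4a, Ms4a4c, Ms4a6b, Ms4a6c, Ms4a6d and Ms4a7. They were taken by gene symbol from a table of read counts for 54532 genes in cardiac macrophages of the mouse. Each symbol matched 1 row, and all 6 were among the 16545 genes that passed a filter on low counts. A further 13 genes of the table carry an Ms4a symbol. The gene coordinates in the table place the 6 on chromosome 19 (build GRCm38, mm10), within one Ms4a cluster and interleaved with other members of the family.

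Poly(A) RNA was sequenced from cells that were sorted magnetically as negative for Ly6G, an antigen of neutrophils, and positive for CD11b, an integrin of myeloid cells. All mice were C57BL/6 and homozygous for a floxed Smad7 gene (Smad7 fl/fl), which encodes an inhibitor of TGF-beta signalling. The control group, S7fl/fl, had no Cre recombinase. The MyS7KO group also carried LyzM-Cre, a Cre driven by the promoter of the lysozyme M gene Lyz2, which is active in macrophages and in neutrophils. Hearts were sampled at baseline, without infarction, and 3 or 7 days after permanent occlusion of a coronary artery. The 6 groups held 3 S7fl/fl and 3 MyS7KO libraries at baseline, 5 of each at day 3, and 3 S7fl/fl (numbered 2, 3 and 4) and 4 MyS7KO (numbered 1, 3, 4 and 5) at day 7. Age and sex were not given in the labels used here. The labels do not say that each library came from its own heart, so the tests measure the spread between these libraries, which may be technical. Total counts ran from 15479402 to 23884938 per library.

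MS4A proteins (membrane-spanning 4-domains, subfamily A) cross the membrane several times and sit beside immune receptors. The founding members are Ms4a1, which encodes CD20 of B cells, and Ms4a2, which encodes the beta chain of the high-affinity IgE receptor of mast cells. Ms4a4a is a macrophage member whose protein associates with the fungal receptor dectin-1, Ms4a6d encodes a macrophage protein that takes part in control of the inflammasome, and Ms4a7 is widely used as a marker of tissue macrophages. Infarcted hearts lose resident macrophages and take up monocytes that become macrophages. RNA of sorted bulk cells does not tell a change in the share of cells that carry a transcript from a change in RNA per cell, and that holds for every level below.

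Several checks on the libraries bear on the values. Smad7 read 53.1 to 61.2 CPM in S7fl/fl and 19.7 to 48.7 in MyS7KO libraries at baseline, 30.4 to 42 and 10.5 to 19.9 at day 3, and 57.4 to 70.2 and 16 to 33.4 at day 7 (CPM: counts scaled to a common library total with TMM factors). The groups did not overlap at any time, yet no difference passed adjustment over all genes (edgeR adjusted p = 0.999, 0.11 and 0.0702). A count per gene would include reads from exons outside a deleted part. The source of the Smad7 reads that remained in MyS7KO was not tested. Macrophage markers were high in every library, with Csf1r at 1040 to 3000 CPM and Adgre1 at 618 to 1360 CPM, while Ly6g did not exceed 0.128 CPM and read 0 in 18 of 23 libraries. Ly6g is 1 of 10 neutrophil markers looked at, and these summed to 94.8 to 327 CPM per library. Csf3r, at 67.7 to 157 CPM, and Mmp9, at 5.78 to 175 CPM, had the highest medians of the 10. Neutrophil markers were thus low but not absent. Xist, or else the Y-linked genes, gave the sex of each library. At day 7 the 3 S7fl/fl libraries were male and the 4 MyS7KO libraries female by this reading, so at that time genotype and sex cannot be told apart. At day 3 a minor signal of the other sex, above 2%, was present in 1 S7fl/fl and 2 MyS7KO libraries. The percentage is of the Xist and Y-linked signals together, each first divided by its median over the libraries that expressed it.

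The 6 genes are near relatives in sequence, and their likeness bears on how surely reads can be assigned. In coding sequence Ms4a6b and Ms4a6c were 86.4% identical, Ms4a6b and Ms4a6d 81.8%, and Ms4a6c and Ms4a6d 79.6%, while every other pair of the 6 stood between 60.8 and 68.9%. Stretches of 75 bases found in more than 1 gene made up 0% of the transcript stretches of Ms4a4a and Ms4a7, 0.408% of Ms4a6d, 0.632% of Ms4a6b and 3.78% of Ms4a4c, the last all shared with Ms4a4b. Ms4a6c stood apart with 47.7%, every one of them shared with BE692007, a gene on the opposite strand that covers 1088 of the 2050 exonic bases of Ms4a6c (53.1%). Whether the counting used strand is not given in the sources used here, so reads of Ms4a6c and BE692007 may not have been told apart and the count of Ms4a6c is uncertain to that extent. BE692007 read 15 to 23 CPM as group means against 104 to 176 CPM for Ms4a6c.

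The likeness extends upstream of the start sites for 2 pairs of genes, whose promoters are shown so that their shared letters can be set beside the values that follow. Each is the 250 bases before the start that RefSeq annotates on GRCm38.p6, on the plus strand, which for Ms4a4c and Ms4a6b lies inside the longer gene model of the count table. In the first pair, Ms4a6c (chr19:11469118-11469367) and Ms4a6b (chr19:11518309-11518558), capitals mark the longest run of bases that both share, 48 bases at -49 to -2 of Ms4a6c and -118 to -71 of Ms4a6b (base -1 is the last before the start). In the second pair, Ms4a4c (chr19:11407411-11407660) and its neighbour Ms4a4b (chr19:11443308-11443557), capitals mark the longest shared run, 20 bases at -38 to -19 of Ms4a4c and -41 to -22 of Ms4a4b.
Ms4a6c: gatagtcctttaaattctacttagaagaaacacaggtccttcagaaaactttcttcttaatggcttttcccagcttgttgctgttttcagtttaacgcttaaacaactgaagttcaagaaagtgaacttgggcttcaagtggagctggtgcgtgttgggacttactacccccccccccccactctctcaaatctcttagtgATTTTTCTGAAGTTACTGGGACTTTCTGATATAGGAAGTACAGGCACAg
Ms4a6b: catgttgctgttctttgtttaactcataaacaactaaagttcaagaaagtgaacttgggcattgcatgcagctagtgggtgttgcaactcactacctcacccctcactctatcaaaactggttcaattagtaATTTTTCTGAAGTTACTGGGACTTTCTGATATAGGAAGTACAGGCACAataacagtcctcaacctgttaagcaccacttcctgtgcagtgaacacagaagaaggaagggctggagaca
Ms4a4c: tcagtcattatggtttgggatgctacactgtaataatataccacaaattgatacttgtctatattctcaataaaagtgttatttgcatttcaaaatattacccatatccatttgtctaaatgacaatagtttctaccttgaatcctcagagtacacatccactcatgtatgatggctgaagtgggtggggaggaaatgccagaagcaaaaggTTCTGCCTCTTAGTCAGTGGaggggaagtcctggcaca
Ms4a4b: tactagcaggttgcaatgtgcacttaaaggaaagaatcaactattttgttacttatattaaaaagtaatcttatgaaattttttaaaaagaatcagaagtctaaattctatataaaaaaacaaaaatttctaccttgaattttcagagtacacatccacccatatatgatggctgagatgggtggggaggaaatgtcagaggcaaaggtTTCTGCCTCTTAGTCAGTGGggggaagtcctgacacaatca

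Aligned, the Ms4a6b and Ms4a6c promoters were 86.0% identical over 172 bases, and those of Ms4a4c and Ms4a4b 88.6% over 132 bases. No other pair among the promoters of the 5 members with an entry, Ms4a4b and Ms4a4d aligned over more than 44 bases. Ms4a6d has no entry in the promoter table. The run shared by Ms4a6b and Ms4a6c holds AGGAAGT, the core bound by ETS factors such as PU.1 of myeloid cells, at bases -17 to -11 of Ms4a6c and -86 to -80 of Ms4a6b. Ms4a6b has a further match at -43 to -37. On either strand AGGAAGT occurs in 7.69% of 32851 mouse promoters of the same length. Of the other motifs searched on both strands, the interferon-stimulated response element (GAAA, any 2 bases, GAAA, in 2.98% of promoters) and the STAT site (TTC, any 3 bases, GAA, in 7.02%) had no match in the members' windows, and TGANTCA (AP-1, 6.75%) had 1 match among the members, at -81 to -75 of 1 of the 2 windows of Ms4a7. A match is a string of letters and was not tested for binding.

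Baseline levels were compared between genes per length, in FPKM as deposited. In S7fl/fl libraries Ms4a4a led with 155 ± 12.4 FPKM (SD, n = 3), followed by Ms4a6d with 84.3 ± 16.9, Ms4a6c with 50 ± 15.4, Ms4a6b with 38.2 ± 10.4, Ms4a7 with 26.4 ± 2.9 and Ms4a4c with 9.56 ± 1.48. The ranges of neighbours in this order were apart, except those of Ms4a6c and Ms4a6b, which overlapped, and those of Ms4a6b and Ms4a7, which met at 28.1 FPKM. Within each single library Ms4a6c read above Ms4a6b. MyS7KO libraries gave the same order of means. The order rests on the gene lengths used as divisors, among them 836 bases for Ms4a4a, 4485 for Ms4a6b and 4453 for Ms4a7. By CPM, which leaves length out, Ms4a4a had a lower S7fl/fl mean (131) than Ms4a6b (173) and Ms4a6d (148).

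**Figure D1:**
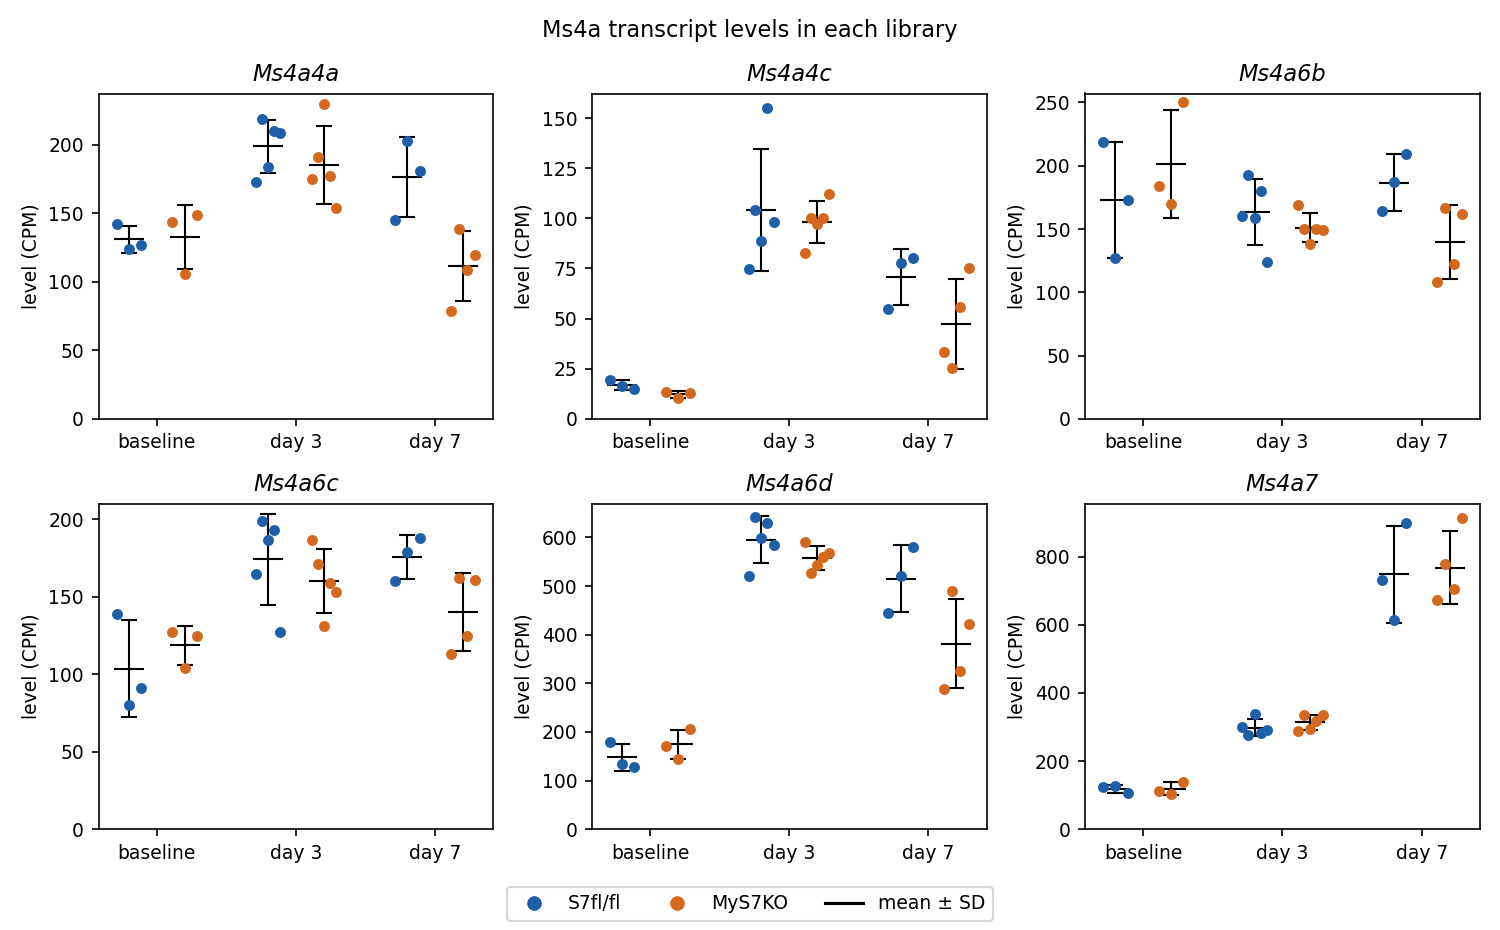
Level of each of the 6 genes in each library, in CPM (vertical axes, each from 0), by time and genotype; points are libraries and bars are mean ± SD. Ms4a6d and Ms4a4c stood higher at both times after infarction than at baseline, Ms4a7 rose again from 276 to 339 CPM at day 3 to 613 to 899 CPM at day 7 in S7fl/fl, and Ms4a6b stayed between 108 and 250 CPM in all groups.

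The comparison of day 3 with baseline asked how the infarct changes these transcripts in the inflammatory phase. In S7fl/fl macrophages 5 of the 6 genes rose and Ms4a6b did not pass (called: edgeR adjusted p under 0.05 over all genes). Of all genes tested 64% were called, 29.9% as higher and 34.1% as lower, so a call alone sets no gene apart. Lack of overlap between times, at day 3 or day 7, is given below without its share over all genes. It therefore sets no gene apart either. The median log2 change of the 6 was 1.04, against -0.06 over all genes tested. In MyS7KO macrophages 5 rose and Ms4a6b fell, with a median of 0.94 against -0.1 over all genes, where 65.9% were called, 30.7% higher and 35.2% lower. Genotypes have their own baseline libraries, so these 2 comparisons share none.

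Ms4a6d read 180, 135 and 128 CPM in the 3 S7fl/fl baseline libraries and 520, 643, 598, 630 and 584 CPM in the 5 day 3 libraries. Every day 3 library stood far above every baseline library. The rise was 4.03-fold (log2 2.01 ± 0.16 SE, edgeR adjusted p = 5.64e-10). In MyS7KO it read 172, 145 and 206 CPM at baseline and 591, 527, 543, 559 and 568 CPM at day 3, a rise of 3.2-fold (log2 1.68 ± 0.16, edgeR adjusted p = 5.97e-09). The groups again did not overlap, and the day 3 libraries of each genotype lay close together.

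Ms4a4c had the largest change of the 6 at day 3 from the lowest level. It read 19.5, 16.5 and 14.7 CPM in S7fl/fl at baseline and 74.9, 104, 88.5, 155 and 98.1 CPM at day 3. All day 3 libraries were higher, with replicate 4 above the rest. The rise was 6.15-fold (log2 2.62 ± 0.3, edgeR adjusted p = 3.77e-07). MyS7KO libraries went from 13.6, 10.4 and 13.1 CPM to 82.7, 100, 97.1, 100 and 112 CPM, with no overlap, a rise of 7.96-fold (log2 2.99 ± 0.31, edgeR adjusted p = 8.49e-08).

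Ms4a7 read 125, 126 and 105 CPM in S7fl/fl at baseline and 299, 276, 339, 282 and 292 CPM at day 3. In MyS7KO the values were 113, 103 and 140 CPM, then 287, 335, 295, 318 and 335 CPM. Neither genotype overlapped between times. S7fl/fl libraries gave a rise of 2.51-fold (log2 1.33 ± 0.13, edgeR adjusted p = 1.48e-08), and MyS7KO libraries one of 2.65-fold (log2 1.4 ± 0.13, edgeR adjusted p = 6.28e-09).

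Ms4a4a, the leading transcript of the family at baseline, changed less. It read 142, 124 and 127 CPM in S7fl/fl at baseline and 173, 219, 184, 210 and 209 CPM at day 3, all higher, a rise of 1.52-fold (log2 0.6 ± 0.16, edgeR adjusted p = 0.00208). In MyS7KO it went from 144, 106 and 149 CPM to 175, 191, 230, 177 and 154 CPM, all higher by a small margin, a rise of 1.39-fold (log2 0.48 ± 0.16, edgeR adjusted p = 0.0107). The MyS7KO call ended without MyS7KO baseline replicate 2 (edgeR adjusted p = 0.0719) and without the libraries of mixed sex (0.0663).

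Ms4a6b and Ms4a6c are the pair most alike in coding sequence and promoter. Ms4a6c read 139, 80.4 and 91.4 CPM in S7fl/fl at baseline and 165, 199, 187, 193 and 127 CPM at day 3. Baseline replicate 1 lay above day 3 replicate 5, and the other libraries were apart. Ms4a6c rose 1.68-fold (log2 0.75 ± 0.17, edgeR adjusted p = 0.000569). Ms4a6b read 219, 127 and 173 CPM at baseline and 160, 193, 159, 180 and 124 CPM at day 3, with overlap, and did not pass (log2 -0.09 ± 0.17, edgeR adjusted p = 0.666). Its sign turned without S7fl/fl baseline replicate 1 (log2 0.17, edgeR adjusted p = 0.45). A test of the difference between the 2 genes was not made.

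In MyS7KO, Ms4a6c read 127, 104 and 125 CPM at baseline and 187, 171, 131, 159 and 153 CPM at day 3, a rise of 1.35-fold with no overlap (log2 0.43 ± 0.17, edgeR adjusted p = 0.0291). The call ended without MyS7KO baseline replicate 2 (0.0984), day 3 replicate 1 (0.068) or day 3 replicate 2 (0.0536), and with unfiltered FPKM in limma-trend (adjusted p = 0.0667). Ms4a6b read 184, 170 and 250 CPM at baseline and 169, 150, 138, 150 and 149 CPM at day 3, a fall of 1.33-fold with every library lower (log2 -0.41 ± 0.17, edgeR adjusted p = 0.0358). This was the less stable call: it ended under 11 of 19 alternatives, among them the omission of MyS7KO baseline replicate 3, which held the highest value (log2 -0.23, edgeR adjusted p = 0.289). Omission of baseline replicate 1 (0.0614) or of day 3 replicates 2 (0.0552), 3 (0.0695), 4 (0.0543) or 5 (0.0563) also ended it, as did the fits with no low-count filter (0.0844), with sex as a covariate (0.0586) and without the libraries of mixed sex (0.158). BE692007, antisense to Ms4a6c, had a log2 change of -0.13 ± 0.17 in S7fl/fl, which did not pass (edgeR adjusted p = 0.523), and it fell in MyS7KO (log2 -0.62 ± 0.17, edgeR adjusted p = 0.00247), so it did not rise with Ms4a6c in either genotype.

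**Figure D2:**
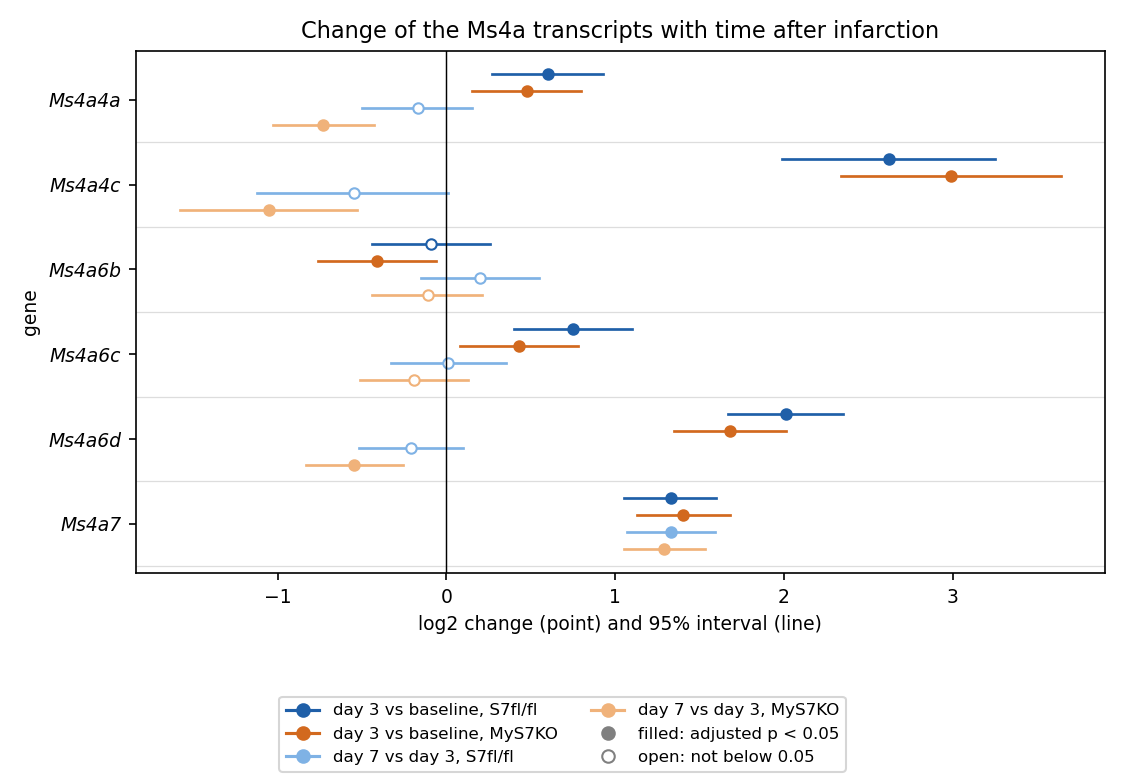
Log2 change of each gene from baseline to day 3 and from day 3 to day 7 in each genotype (points, with 95% intervals as lines; filled points passed at an edgeR adjusted p under 0.05). Ms4a4c and Ms4a6d have the largest steps to day 3, and Ms4a7 alone has filled points to the right of 0 at both steps in both genotypes.

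Day 7 was compared with day 3 to follow the genes from the inflammatory into the reparative phase. In S7fl/fl macrophages Ms4a7 alone of the 6 was called, and it rose. Of all genes 21.7% were called, 11.5% higher and 10.1% lower, and the medians were -0.08 over the 6 and 0.01 over all genes (log2). Ms4a7 read 732, 613 and 899 CPM in S7fl/fl at day 7, above the highest day 3 value of 339 CPM in every library. It rose 2.51-fold (log2 1.33 ± 0.12, edgeR adjusted p = 1.56e-07).

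The other 5 genes overlapped between day 3 and day 7 in S7fl/fl. At day 7 Ms4a6d read 444, 521 and 581 CPM (log2 -0.21 ± 0.15, edgeR adjusted p = 0.355) and Ms4a4a read 145, 203 and 181 CPM (log2 -0.17 ± 0.16, edgeR adjusted p = 0.469). Ms4a4c read 54.8, 77.8 and 80.2 CPM, the lowest of them below all day 3 libraries (log2 -0.55 ± 0.27, edgeR adjusted p = 0.158). Ms4a6c, at 160, 179 and 188 CPM, and Ms4a6b, at 164, 187 and 209 CPM, had log2 changes of 0.01 ± 0.17 and 0.2 ± 0.17 (edgeR adjusted p = 0.972 and 0.45).

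In MyS7KO macrophages 1 gene rose from day 3 to day 7 and 3 fell, where 39.6% of all genes were called, 20.5% higher and 19.1% lower, and the medians were -0.37 over the 6 and 0.08 over all genes. Ms4a7 rose here too, to 672, 779, 705 and 915 CPM, each above all day 3 libraries, 2.45-fold (log2 1.29 ± 0.12, edgeR adjusted p = 3.07e-08). Ms4a4a fell to 78.7, 139, 109 and 120 CPM, each below all day 3 libraries, 1.66-fold (log2 -0.73 ± 0.14, edgeR adjusted p = 0.000328). These levels overlapped with the 106 to 149 CPM of the MyS7KO baseline.

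Ms4a4c fell to 33.3, 25.4, 55.6 and 75 CPM, each below day 3 with a wide spread among libraries, 2.08-fold (log2 -1.05 ± 0.25, edgeR adjusted p = 0.00226). Ms4a6d fell to 289, 490, 326 and 421 CPM, again each below day 3, 1.46-fold (log2 -0.55 ± 0.14, edgeR adjusted p = 0.00287). Ms4a6c, at 113, 162, 125 and 161 CPM, and Ms4a6b, at 108, 167, 122 and 162 CPM, overlapped with day 3 (log2 -0.19 ± 0.15 and -0.11 ± 0.16, edgeR adjusted p = 0.34 and 0.599). That 3 falls passed in MyS7KO and not in S7fl/fl is no test of a difference between genotypes, which is given below.

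Against baseline, day 7 left 5 of the 6 genes higher in S7fl/fl (50.2% of all genes called, 24.8% higher and 25.4% lower). In MyS7KO 3 were higher and 1 was lower (44% called, 22.2% higher and 21.8% lower). These comparisons share their baseline libraries with those of day 3, and their day 7 libraries with those above. The 3 large changes were those of Ms4a7, 6.31-fold higher in S7fl/fl (log2 2.66 ± 0.15) and 6.47-fold in MyS7KO (2.69 ± 0.15), of Ms4a4c, 4.19-fold (2.07 ± 0.31) and 3.83-fold (1.94 ± 0.3), and of Ms4a6d, 3.49-fold (1.8 ± 0.17) and 2.19-fold (1.13 ± 0.16). The edgeR adjusted p-values of these 6 ran from 3.71e-12 to 4.4e-05.

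In S7fl/fl Ms4a6c rose 1.7-fold over baseline, with every library higher (log2 0.76 ± 0.19, edgeR adjusted p = 0.00181), and it did not pass in MyS7KO (log2 0.24 ± 0.17, edgeR adjusted p = 0.276). Ms4a4a rose 1.34-fold in S7fl/fl (log2 0.43 ± 0.17, edgeR adjusted p = 0.0446), a call that ended under 12 of 17 alternatives. It ended with DESeq2 (adjusted p = 0.0674) and in edgeR without S7fl/fl baseline replicate 2 (0.113) or 3 (0.104), or day 7 replicate 3 (0.188) or 4 (0.0966). In MyS7KO Ms4a4a did not pass (log2 -0.25 ± 0.16, edgeR adjusted p = 0.213). Ms4a6b fell 1.44-fold in MyS7KO (log2 -0.53 ± 0.18, edgeR adjusted p = 0.0196) and had a log2 change of 0.11 ± 0.19 in S7fl/fl (edgeR adjusted p = 0.659), whose sign turned without baseline replicate 2 (log2 -0.07). The Ms4a6b call in MyS7KO ended without MyS7KO baseline replicate 3 (edgeR adjusted p = 0.158), day 7 replicate 1 (0.0658) or day 7 replicate 4 (0.0539), and with sex as a covariate (0.0736).

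Markers of several cell types moved over the same intervals. The summed CPM of 11 macrophage markers, leaving out Lyz2 whose locus carries the Cre, was 10900 to 13300 at baseline, 12300 to 13700 at day 3 and 18600 to 18900 at day 7 in S7fl/fl. The 8 endothelial markers, all detected in every library, summed to 1920 to 2620, 363 to 856 and 294 to 596 CPM at these times, and the 8 fibroblast markers to 711 to 1060, 248 to 1090 and 1290 to 3400 CPM. Set per 1000 CPM of the 11 macrophage markers, Ms4a7 read 10.1 ± 1.17, 23.3 ± 2.36 and 39.9 ± 8.01 at baseline, day 3 and day 7 in S7fl/fl, still with no overlap between times. Ms4a6d read 12.7 ± 3.39, 46.4 ± 3.42 and 27.5 ± 3.9 on this scale, and Ms4a4c 1.45 ± 0.303, 8.15 ± 2.56 and 3.78 ± 0.773, so that both were highest at day 3. Ms4a4a read 11.3 ± 1.89, 15.5 ± 1.29 and 9.4 ± 1.58, and its day 7 libraries then overlapped with baseline. The markers behind this scale did not move as one. Of the 12 macrophage markers with Lyz2, 4 were called higher and 4 lower at day 3 against baseline in S7fl/fl. Over all genes 29.9% were higher and 34.1% lower. From day 3 to day 7, 7 were higher and 1 lower, against 11.5% and 10.1% of all genes. Cd14 had the highest median of the 11, 4090 CPM over all libraries. The part of the cell types in the changes over time was not tested.

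Together these changes altered which family member was the most abundant per length. The summed FPKM of the 6 genes was 364 ± 56.3 in S7fl/fl and 396 ± 64.6 in MyS7KO at baseline, 817 ± 72.6 and 780 ± 19.6 at day 3, and 826 ± 90.6 and 648 ± 116 at day 7. In S7fl/fl Ms4a4a held 43 ± 2.97% of the sum at baseline, 28.7 ± 1.69% at day 3 and 25 ± 3% at day 7. Ms4a6d took the lead with 23.1 ± 1.33%, 41.4 ± 0.774% and 35.2 ± 0.569%. In FPKM Ms4a6d lay above Ms4a4a in every library of both times after infarction. These shares depend on the gene lengths. By CPM the S7fl/fl mean of Ms4a6d (148) was above that of Ms4a4a (131) at baseline too.

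Ms4a7 went from 7.32 ± 1.08% and 8.13 ± 1.13% to 20 ± 3.36% of the sum in S7fl/fl, and from 6.73 ± 0.441% and 9.03 ± 0.806% to 26.7 ± 2.66% in MyS7KO. At day 7 its share was 23.2 to 29.6% in MyS7KO and 16.1 to 22.2% in S7fl/fl, while the share of Ms4a4a was 18.5 to 22.1% and 23.1 to 28.4%. The genotypes did not overlap in either share, which was looked at after the values were seen and was not tested. In S7fl/fl at day 7 the ranges of Ms4a7 and Ms4a4a overlapped, with 135 to 196 and 171 to 238 FPKM, as did those of Ms4a6b and Ms4a4c, with 36.2 to 45.2 and 30.9 to 44.5 FPKM. Within each of these libraries Ms4a4a read above Ms4a7.

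**Figure D3:**
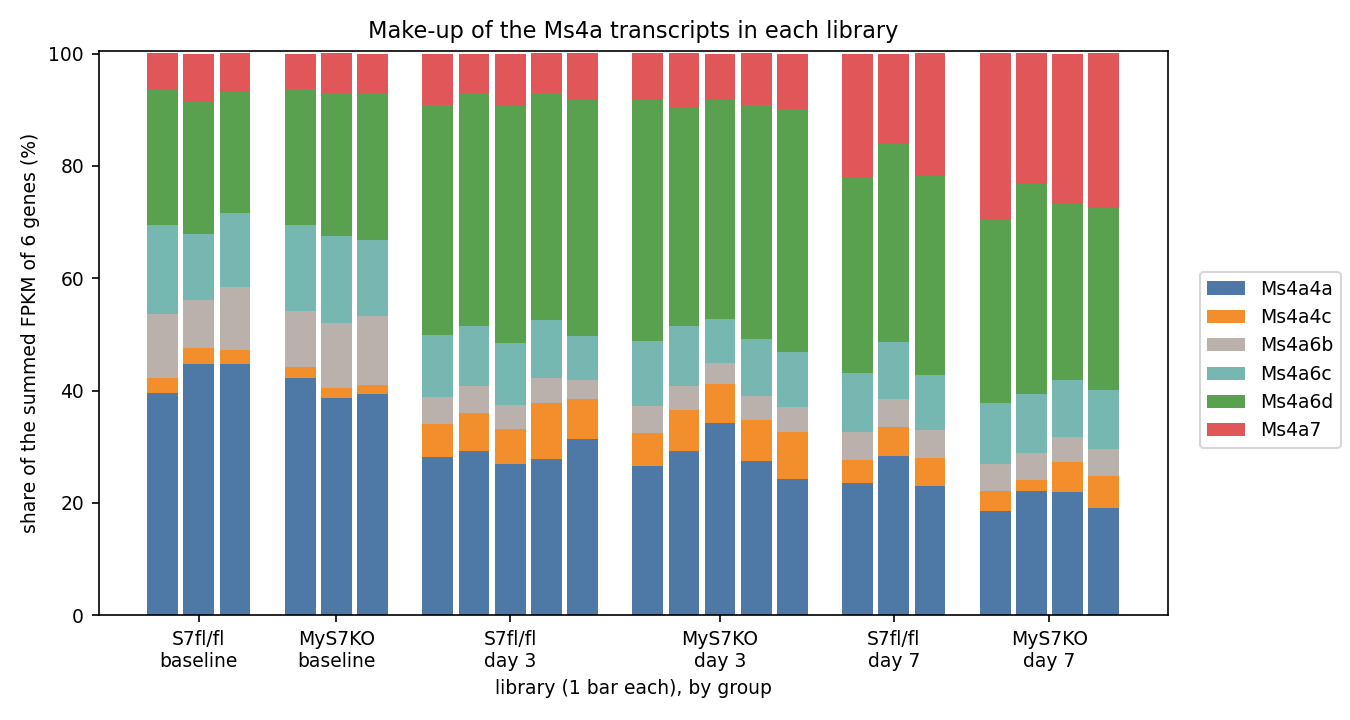
Share of each gene in the summed FPKM of the 6 genes (vertical axis, percent), 1 bar per library, by group. Ms4a4a holds the largest share at baseline (43 ± 2.97% in S7fl/fl), Ms4a6d at day 3 (41.4 ± 0.774%), and the share of Ms4a7 at the top of each bar is largest at day 7.

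The comparison of MyS7KO with S7fl/fl asked what loss of Smad7 in myeloid cells does to these transcripts at each time. None of the 6 genes was called at any time. With edgeR 0.0121% of all genes were called at baseline and at day 3 and 0.0181% at day 7, and DESeq2 and limma-voom also called none of the 6 at any time. At baseline and day 3 none of the 6 had an unadjusted p under 0.05. Log2 differences were -0.45 to 0.24 at baseline and -0.12 to 0.08 at day 3 (edgeR adjusted p = 0.999 at baseline and 0.982 to 0.984 at day 3). At baseline every MyS7KO library of Ms4a4c, at 10.4 to 13.6 CPM, lay below the S7fl/fl libraries, at 14.7 to 19.5 CPM. The share of all genes that did so is not given here. The intervals are wide at baseline: for Ms4a4c the 95% interval was -1.11 to 0.2 and for Ms4a6d -0.11 to 0.58.

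At day 7 the means of 5 genes were lower in MyS7KO, and 4 of the 6 had an unadjusted p under 0.05, where 13.1% of all genes did. The median difference was -0.43 over the 6 and -0.01 over all genes. Ms4a4a had 176 ± 29.3 CPM in S7fl/fl (n = 3) and 112 ± 25.3 CPM in MyS7KO (n = 4), 1.58-fold lower. Its MyS7KO libraries, at 78.7 to 139 CPM, all lay below the S7fl/fl libraries, at 145 to 203 CPM, as did those of 5.63% of all genes. The difference did not pass (log2 -0.66 ± 0.16, unadjusted p = 0.000459, edgeR adjusted p = 0.182). Without MyS7KO day 7 replicate 3, the library with the highest of the 4 values, it passed (log2 -0.78, edgeR adjusted p = 0.0377).

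Ms4a6d had 515 ± 68.6 CPM in S7fl/fl and 382 ± 91.3 CPM in MyS7KO at day 7 (log2 -0.43 ± 0.15, edgeR adjusted p = 0.311). Ms4a6b had 187 ± 22 and 140 ± 29.1 CPM (log2 -0.42 ± 0.18, edgeR adjusted p = 0.348), Ms4a4c 70.9 ± 14 and 47.3 ± 22.4 CPM (log2 -0.58 ± 0.28, edgeR adjusted p = 0.379), and Ms4a6c 176 ± 14.6 and 140 ± 24.8 CPM (log2 -0.32 ± 0.17, edgeR adjusted p = 0.42). All 4 overlapped between genotypes. Ms4a7 stood at 748 ± 144 and 768 ± 108 CPM (log2 0.04 ± 0.13, 95% interval -0.24 to 0.31, edgeR adjusted p = 0.934). MyS7KO replicates 1 and 4 were the lowest libraries of Ms4a4a, Ms4a6b, Ms4a6c and Ms4a6d.

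**Figure D4:**
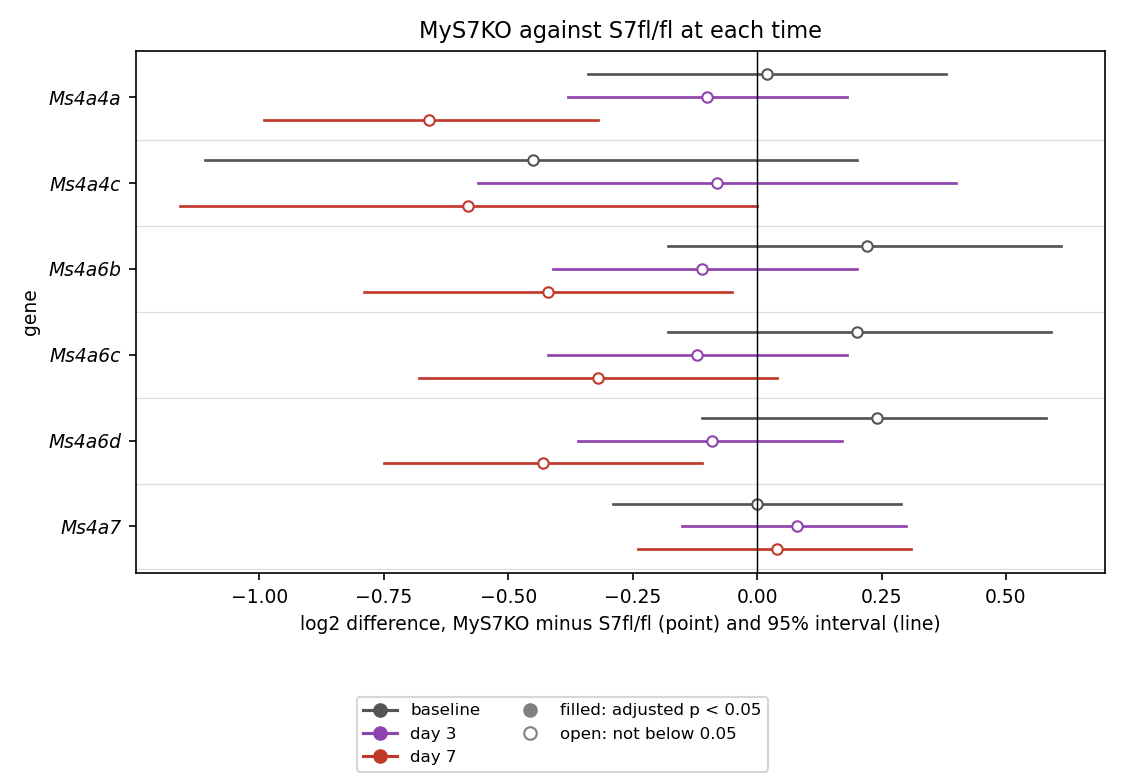
Log2 difference between MyS7KO and S7fl/fl for each gene at baseline, day 3 and day 7 (points, with 95% intervals as lines). All points are open, since no difference passed at an edgeR adjusted p under 0.05, and at day 7 the intervals of Ms4a4a, Ms4a6b and Ms4a6d lie below 0 before adjustment and that of Ms4a4c ends at 0 (unadjusted p = 0.0493).

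Other measures were set beside the day 7 difference, and some of them overlapped between the genotypes. The summed CPM of the same 11 macrophage markers was 18600 to 18900 in S7fl/fl and 12900 to 17200 in MyS7KO at day 7, with no overlap. Per 1000 CPM of these markers Ms4a4a read 7.68, 10.8 and 9.73 in S7fl/fl and 6.12, 8.08, 7.14 and 6.94 in MyS7KO, and the genotypes then overlapped. Ms4a7 on the same scale read 38.8, 32.6 and 48.4 in S7fl/fl and 52.2, 45.2, 46.2 and 53.1 in MyS7KO. All 8 fibroblast markers were detected in every library, and their sum was 3400, 1290 and 1840 CPM in S7fl/fl and 5090, 1780, 4200 and 2830 CPM in MyS7KO at day 7. The 8 endothelial markers summed to 294 to 596 CPM in S7fl/fl and 230 to 1400 CPM in MyS7KO, with overlap, and the 8 T cell markers to 52 to 93.5 and 95 to 115 CPM, with none. The T cell sum is mainly that of 1 gene, Il7r, with a median of 86.2 CPM over all libraries. Cd28 came next with a median of 3.18 CPM, and Cd3e read 0 in 8 of 23 libraries. The median log2 difference was 0.92 over the endothelial, 0.73 over the fibroblast and 0.6 over the 4 tested T cell markers, and none of these genes was called. The part of these cell types in the difference was not tested. Sex, which cannot be told apart from genotype at day 7, differed within the baseline and day 3 groups. In a fit with a coefficient for each group, the log2 difference of Xist-bearing from Y-bearing libraries was 0.01 ± 0.11 for Ms4a4a. For all 6 it was -0.1 to 0.32 (edgeR adjusted p = 0.86 to 0.995). These values rest on the baseline and day 3 libraries only, since each day 7 group is of 1 sex, and they do not measure sex at day 7.

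The change of the genotype difference between times was tested directly. None of the 6 passed in any of the 3 tests, and neither did any of the 16545 genes with edgeR (0% in each). Over all genes DESeq2 called 0, 3 and 3 and limma-voom 0 in each of these tests. From baseline to day 3 none of the 6 had an unadjusted p under 0.05, against 4.48% of all genes. From baseline to day 7 there were 3, against 5.21% of all genes: Ms4a6d (log2 -0.67 ± 0.23), Ms4a4a (-0.68 ± 0.24) and Ms4a6b (-0.64 ± 0.26), each with an edgeR adjusted p of 0.877. From day 3 to day 7 it was Ms4a4a alone (log2 -0.56 ± 0.21, edgeR adjusted p = 0.445), against 10.4% of all genes. Neither DESeq2 nor limma-voom called any of the 6 here.

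The neighbours of the 6 in the cluster did not share one course. Of a list of 16 other Ms4a genes and the related Tmem176 genes, 15 are in the table and 7 were tested. The 8 not tested, among them Ms4a2 and Ms4a3, did not exceed 5 counts in any library. From baseline to day 3 in S7fl/fl 1 of the 7 rose and 5 fell (median log2 -1.71, against -0.06 over all genes). This median is the value of Ms4a1, whose change rests on 1 baseline library, as given below. In MyS7KO 3 of the 7 fell. Tmem176a and Tmem176b, which lie outside the cluster, were among the genes that fell in both genotypes. Over all genes 29.9% were called higher and 34.1% lower at this step in S7fl/fl, and 30.7% and 35.2% in MyS7KO. Tmem176a and Tmem176b, whose genes on chromosome 6 overlap on opposite strands, fell in S7fl/fl by 4.13-fold (log2 -2.04 ± 0.16, edgeR adjusted p = 2.92e-10) and 4.45-fold (log2 -2.15 ± 0.17, edgeR adjusted p = 6.65e-10). Both rose again from day 3 to day 7, Tmem176a 2.76-fold (edgeR adjusted p = 9.89e-07) and Tmem176b 2.9-fold (1.95e-06).

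Further neighbours were singled out after their values were seen. Ms4a14, whose start lies 21.7 kb from that of Ms4a7, read 60.4, 41.7 and 52.1 CPM in S7fl/fl at baseline, 58.5, 49.9, 73.6, 54.3 and 47.9 CPM at day 3 and 118, 130 and 149 CPM at day 7. It did not pass at day 3 (log2 0.14 ± 0.16, edgeR adjusted p = 0.45) and rose 2.33-fold from day 3 to day 7 (log2 1.22 ± 0.16, edgeR adjusted p = 9.74e-06). In MyS7KO it rose 2.66-fold from day 3 to day 7 (log2 1.41 ± 0.15, edgeR adjusted p = 2.15e-07). Ms4a14 and Ms4a7 thus both rose in the step to day 7, and a difference between the 2 genes in the step to day 3 was not tested.

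Ms4a4d, whose start lies between those of Ms4a6b and Ms4a6d, fell from 7.17 ± 1.74 to 0.96 ± 0.529 CPM at day 3 in S7fl/fl (log2 -2.9 ± 0.41, edgeR adjusted p = 2.22e-06). Each day 3 library of Ms4a4d lay below each baseline library. Ms4a4b, a T cell member with a promoter like that of Ms4a4c, went from 5.67 ± 2.52 to 3.17 ± 0.947 CPM (log2 -0.85 ± 0.33, edgeR adjusted p = 0.0296), and Ms4a1 from 2.64 ± 3.04 to 0.814 ± 0.166 CPM (log2 -1.71 ± 0.58, edgeR adjusted p = 0.0136). For Ms4a1 the fitted change rests on 1 baseline library at 6.15 CPM, since the other baseline libraries, at 0.812 and 0.962 CPM, lay within the day 3 range of 0.642 to 1.09 CPM. Lymphocyte markers moved as well, at a step where 29.9% of all genes were called higher and 34.1% lower. The sum of 8 B cell markers was 168 to 206 CPM at baseline and 26.9 to 42.4 CPM at day 3 in S7fl/fl, with 7 of 7 tested members lower, and that of 7 NK cell markers was 43.5 to 106 and 8.39 to 13.3 CPM, with 7 of 7 lower. The sum of 8 T cell markers went the other way, from 13.7 to 22.9 CPM to 100 to 141 CPM, with 1 of the 4 tested members higher and 2 lower. Il7r, its most abundant member, read up to 137 CPM, and Cd3e read 0 in 8 of 23 libraries. The part of these cells in the changes was not tested. Ms4a8a read 10.1, 34.3, 10.7, 27.4 and 13.3 CPM at day 3 in S7fl/fl, with replicates 2 and 4 high, against 7.4 to 10.9 CPM at baseline (log2 1.05 ± 0.37, edgeR adjusted p = 0.0184).

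**Figure D5:**
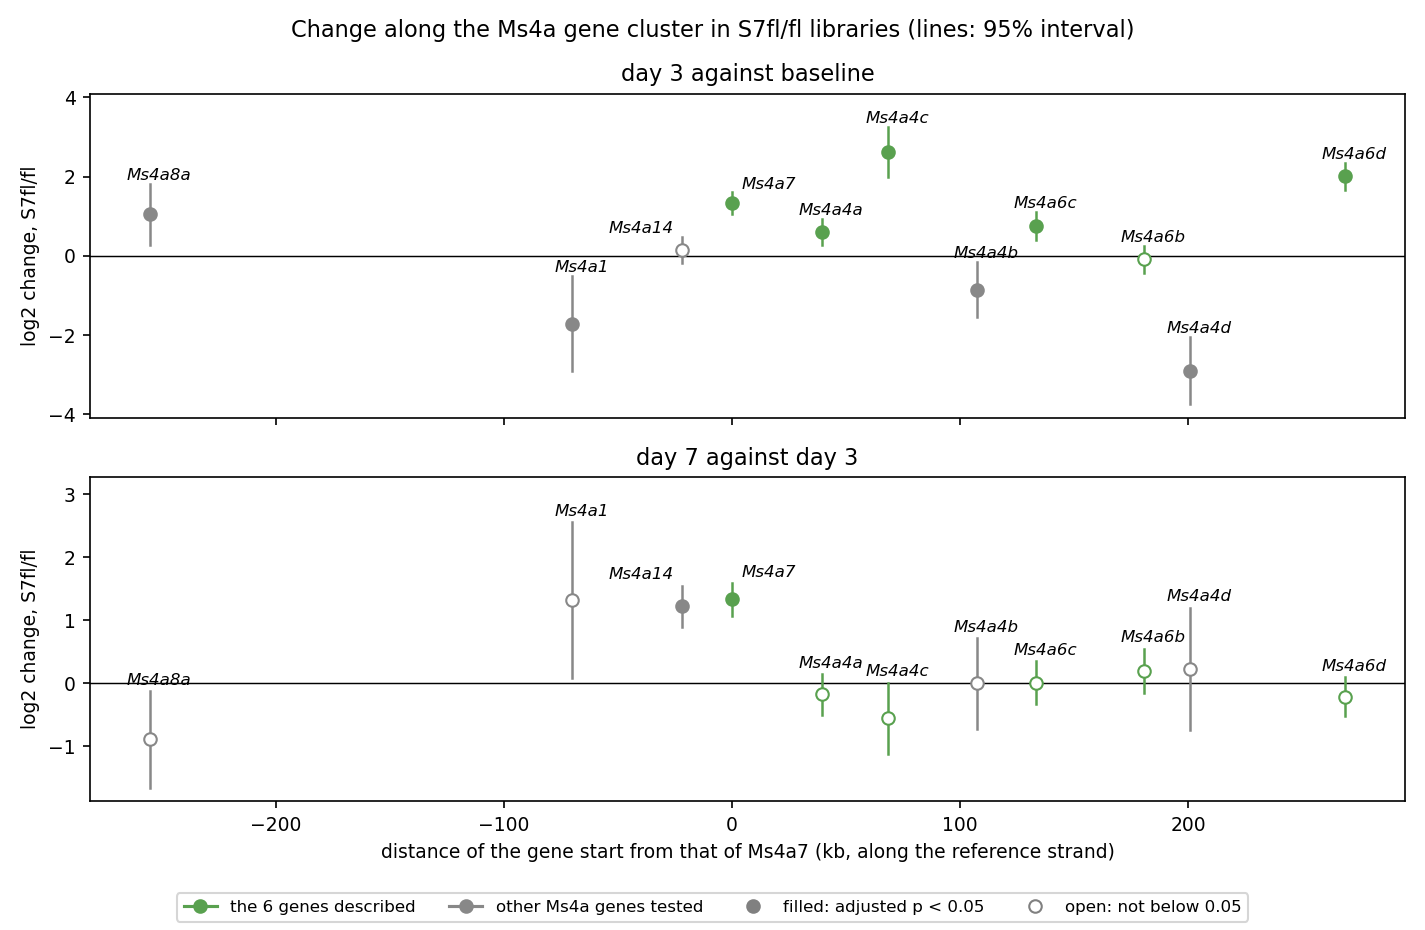
Log2 change of the tested Ms4a genes in S7fl/fl libraries against the distance of their start from that of Ms4a7 in kb (points, with 95% intervals as lines; filled points passed at an edgeR adjusted p under 0.05). At day 3 genes that rose and genes that fell are interspersed along the cluster, with Ms4a14 and Ms4a6b open, and from day 3 to day 7 the filled points are Ms4a7 and Ms4a14, 21.7 kb apart.

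Receptors and signalling partners of MS4A proteins were followed as a list of 12. From baseline to day 3 in S7fl/fl 9 rose and 1 fell (median log2 0.86), and from day 3 to day 7 3 rose and none fell (median 0.31). Over all genes 29.9% were called higher and 34.1% lower at day 3, and 11.5% and 10.1% from day 3 to day 7. Trem2, a lipid receptor of macrophages, rose 5.38-fold at day 3, from 80.7 ± 13.5 to 434 ± 56.4 CPM (edgeR adjusted p = 1.01e-10), and 1.53-fold further by day 7 (edgeR adjusted p = 0.00544). Fcgr1, the high-affinity IgG receptor, rose 3.92-fold at day 3 (edgeR adjusted p = 6.27e-09), and Cd4 rose 2.78-fold from day 3 to day 7, to 13.5 ± 3.45 CPM (edgeR adjusted p = 1.55e-05). In MyS7KO 8 rose and 2 fell at day 3, where 30.7% of all genes were called higher and 35.2% lower. None of the 12 was called by genotype at any time, where at most 0.0181% of all genes were.

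Lists of macrophage states give the setting at day 3 in S7fl/fl, where 29.9% of all genes were called higher and 34.1% lower. Of 15 genes of resident cardiac macrophages 13 fell and 1 rose, among the former Folr2, a folate receptor (4.76-fold, edgeR adjusted p = 7.27e-13), and Timd4, a receptor for dying cells (33.9-fold, edgeR adjusted p = 1.13e-10). Of 13 genes of classical monocytes 12 rose and 1 fell, with a median log2 change of 2.04. Those of lowest p were the chemokine receptor gene Ccr2 (3.58-fold, edgeR adjusted p = 4.33e-09) and the collagenase gene Mmp8 (28.8-fold, edgeR adjusted p = 4.73e-09). From day 3 to day 7 10 of these 13 fell again, Mmp8 by 6.8-fold (edgeR adjusted p = 1.47e-05) and Cd177 by 4.66-fold (edgeR adjusted p = 8.02e-07). Mmp8 and Cd177 are known from neutrophils too, and which cells carried them was not tested. Of the 9 tested neutrophil markers 4 fell and none rose at day 3, and 2 rose and none fell from day 3 to day 7. Over all genes 11.5% were called higher and 10.1% lower from day 3 to day 7. Of the 15 resident genes 3 rose, 2 fell and 10 did not pass in that interval, and Igf1 (2.35-fold) and Fcrls (2.03-fold) were among those that rose (edgeR adjusted p = 3.76e-05 and 0.000252).

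Of 12 genes of lipid-associated and phagocytic macrophages 9 rose and 2 fell at day 3, those of lowest p being the osteopontin gene Spp1, from 24.4 ± 7.67 to 11000 ± 2290 CPM (edgeR adjusted p = 5.41e-14), and the protease gene Ctsd (12.3-fold, edgeR adjusted p = 6.3e-13). From day 3 to day 7 5 rose and 3 fell, where 11.5% of all genes were called higher and 10.1% lower. Axl, a receptor for dying cells, rose 2.7-fold (edgeR adjusted p = 4.21e-08) and the lipoprotein gene Apoe 2.74-fold (edgeR adjusted p = 3.69e-07), steps of about the size of that of Ms4a7. Of 20 interferon response genes 4 rose, among them Oas1a (1.74-fold, edgeR adjusted p = 0.00193), and 2 fell, among them Mx2 (2.79-fold, edgeR adjusted p = 9.88e-06), at day 3. Both shares lay below those over all genes, of which 29.9% were called higher and 34.1% lower. From day 3 to day 7, where 21.7% of all genes were called, the 1 gene of this list called was Cxcl10, which rose 1.83-fold (edgeR adjusted p = 0.00408).

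Across the 23 libraries the courses of the 6 genes were compared by the root mean square difference of their log2 CPM, each centred on its mean over the libraries, so that a small value means a like course. Within the family the lowest values were those of Ms4a4a with Ms4a6c (0.32) and Ms4a6b with Ms4a6c (0.36). The highest were Ms4a4c with Ms4a6b (1.29) and Ms4a6b with Ms4a7 (1.12). The low values lie near the medians of these genes over the 9034 genes compared below, 0.44 for Ms4a4a and Ms4a6b and 0.41 for Ms4a6c. Ms4a4c with Ms4a6d stood at 0.54, where the medians were 1.14 and 0.75. Ms4a7 was no nearer than 0.77 to any of the other 5. Among 9034 named genes with a mean log2 CPM of at least 3, the nearest to Ms4a7 were Hvcn1, a proton channel gene (0.21), Olfml3 (0.22) and Ccrl2, a chemokine-binding receptor gene (0.24), where the median over the 9034 was 1.01.

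The nearest to Ms4a6d were Ap3s1, an adaptor of vesicle traffic (0.18), Fuca2, a fucosidase (0.19), and Pgd of the pentose phosphate pathway (0.19, median 0.75). For Ms4a4c they were Slc16a3, a lactate transporter gene, Glrx, a glutaredoxin gene, and A530064D06Rik (0.33 each, median 1.14). For Ms4a4a they were Eloc, Cox16 and Bud31 (0.2 each, median 0.44), for Ms4a6c Ube2j1, H3f3a and Rap2c (0.15 each, median 0.41), and for Ms4a6b Cept1 (0.18), Wdfy2 (0.18) and Zfx (0.19, median 0.44). A gene with small changes has a small difference from many others on this scale, so the value for each gene is read against its own median. All points share their libraries and scaling factors, and no test was made.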

How the data were processed

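Poly(A) RNA of sorted cardiac macrophages was measured in 23 libraries of 6 groups. The deposited count table holds the authors' whole-number read counts per gene, used as they stand. FPKM were deposited by the authors too. Each is a count over gene length and a constant of its library (checked on 8282 genes). TopHat2 2.0.9, Cufflinks 2.1.1, HTSeq 0.6.1 and builds mm10 and GRCm38.p6 are named per the submitters' processing notes. Strandedness of the counting is not given in the sources used here.

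The main test was the robust quasi-likelihood test of edgeR 4.0.16 in R 4.3.3, with limma 3.58.1. Libraries were scaled by TMM, genes filtered with filterByExpr, and all 23 libraries fitted in 1 model with a coefficient for each group. P-values are two-sided and adjusted by Benjamini-Hochberg over 16545 genes. The threshold was 0.05, and the code was tested on simulated data. The members and lists were chosen with earlier results of these data known. Text names every member, the 2 called genes of lowest p of each functional list in S7fl/fl at day 3 against baseline and day 7 against day 3, and the 3 genes most like each member. A gene outside this rule is named as chosen after its values were seen. Alternatives were RLE scaling, no filter, DESeq2 1.42.0, limma-voom with quality weights, limma-trend on FPKM (log2 after adding 1, with and without the filter, or 0.1), only the groups compared, a replicate block, each library left out, and, added after seeing the data, sex as a covariate and omission of libraries of mixed sex. No 2 libraries of a group look like one library deposited again: over 35 pairs the chi-square statistic was 8.73 to 52.1 times its degrees of freedom. Gene coordinates in the count table equal those of GENCODE vM21 for 98.3% of 54409 genes, which was used for exons, shared stretches and coding sequence. Promoters are from RefSeq (GRCm38.p6).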

Additional observations from a re-analysis of the deposited data

How the results depend on the processing

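Of 1482 alternative values of single genes 1414 kept their direction and side of the threshold, 34 lost a call, 1 gained one and 33 turned sign, the last all among values that did not pass. Of 247 alternative counts of called genes 246 stayed within 1.5 times, and the count by genotype at day 7 went from 0 to 1 without MyS7KO day 7 replicate 3, and so ran from 0 to 1 with each library left out. With limma-voom the genotype difference turned to -0.03 for Ms4a4a and -0.06 for Ms4a7 at baseline, to 0.09 for Ms4a4c at day 3 and to -0.01 for Ms4a7 at day 7. With sex as a covariate Ms4a7 turned to -0.02 at day 7 and to -0.04 for the change from baseline to day 7, and without the libraries of mixed sex Ms4a4c turned to 0.12 at day 3. The cause of these turns was not tested.

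With each library left out, log2 values that turned sign ran from -0.07 to 0.19 for Ms4a4a by genotype at baseline, -0.18 to 0.11 for Ms4a4c by genotype at day 3, and -0.44 to 0.08 for Ms4a4c in the change of that difference from baseline to day 7. For Ms4a6b in S7fl/fl they ran from -0.27 to 0.17 at day 3 and -0.07 to 0.37 at day 7, both against baseline, and for Ms4a6c from -0.08 to 0.08 between day 3 and day 7. For Ms4a7 by genotype they ran from -0.13 to 0.12 at baseline and -0.09 to 0.19 at day 7, and for the change of that difference from -0.03 to 0.21 (baseline to day 3), -0.09 to 0.19 (baseline to day 7) and -0.17 to 0.11 (day 3 to day 7).

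Replicate numbers were not used to pair the samples in the main test. Deviations of same-numbered libraries correlated from -0.3 to 0.225 over 10 pairs. Differently numbered libraries were not compared in this way, so the check does not settle whether some numbers pair. With a replicate block Ms4a7 stood at 0 by genotype at baseline, and 2 calls were lost, Ms4a4a at day 7 against baseline in S7fl/fl (adjusted p = 0.0858) and Ms4a6b at day 3 against baseline in MyS7KO (0.0679), so that 4 in place of 5 and 5 in place of 6 genes were called there. Over all genes the genotype comparison at day 7 called 3 genes with edgeR, 49 with DESeq2, 13 with limma-voom and 59 without MyS7KO day 7 replicate 3. That at day 3 called 2 with edgeR and 4 with DESeq2, and that at baseline 2 with edgeR and 39 with unfiltered FPKM, which also gave 15 and 14 in place of 0 for its change from baseline to day 3 and to day 7. Day 7 against day 3 in S7fl/fl went from 3587 to 2195 genes without S7fl/fl day 7 replicate 2. Groups of 3 to 5 libraries limit the genotype tests, where the 95% intervals of the 6 genes at day 7 reach from -1.16 to 0.31.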
